A study of Mus musculus with 8 samples.

Results

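Vmp1, the gene that hosts the microRNA gene Mir21a, was examined here together with 36 other genes of the autophagy machinery, to ask whether these genes differ between WT and miR-21-/- tumor-associated macrophages (TAMs) as Vmp1 does. The 37 genes were taken by their symbol from a deposited table of 53247 genes. Each symbol was found in the table, and all 37 genes were among the 13850 genes tested, with at least 72 reads in the sample with the fewest. Vmp1 was put on the list because its difference was already known from an earlier look at these samples, so its own values are a description of a known result and not independent support for it.

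To obtain the TAMs, LLC cells (Lewis lung carcinoma, of mouse origin) were placed s.c. in WT or miR-21-/- (labelled miR-21 null) mice 8 weeks of age. Tumors were taken after 14 days, when the mice were 10 weeks old, and CD45+ CD11b+ MHC II+ F4/80+ cells were sorted for mRNA sequencing, with 4 samples per genotype. The labels give the strain as C57/BL6 for both genotypes. The methods name the null allele as Mir21a tm1Yoli, a germline deletion that was crossed to C57BL/6 for several generations. Every cell of these mice therefore lacks miR-21, whereas the implanted tumor cells carry their own genome, and no group of the table lacks miR-21 in macrophages alone. The labels call the samples biological replicates without naming a mouse for each, and miR-21-/- replicate 1 carries a pair of numbers in its title with no word on pooling, so p-values measure the spread between these samples.

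Autophagy wraps cytoplasmic material in a double membrane, the autophagosome, and delivers it to the lysosome. The ULK kinase complex starts the process, the class III PI3K complex makes the lipid PI3P on the growing membrane, ATG9A vesicles and ATG2 proteins bring in lipid, and ubiquitin-like conjugation reactions attach LC3 and GABARAP proteins, which cargo receptors bind. VMP1 and its relative TMEM41B are membrane proteins of the endoplasmic reticulum that move lipids between the leaflets of the membrane and are needed for autophagosomes to form. In macrophages the same machinery also serves the clearance of microbes and the handling of phagocytosed material.

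Vmp1 lies on the minus strand at chr11:86583865-86683836 of mm10 (GRCm38). Mir21a occupies the 92 bases chr11:86584067-86584158, on the same strand. In the GENCODE annotation this stretch falls inside exon 12, and within it the 3′ UTR, of 1 of the 8 Vmp1 transcripts (Vmp1-201). Mir21a and Vmp1 thus share an exon, and the loss of the microRNA cannot be told apart from the altered DNA of the Vmp1 locus in these groups. The mature products are shown because they are what the miR-21-/- samples lack and because their seeds define the sites searched further on. Both are RefSeq entries of build GRCm38.p6, 22 bases long and written 5′ to 3′, with the seed (bases 2 to 8) in capitals. They do not share a seed.

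mmu-miR-21a-5p, chr11:86584120-86584141, minus strand: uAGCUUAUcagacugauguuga

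mmu-miR-21a-3p, chr11:86584082-86584103, minus strand: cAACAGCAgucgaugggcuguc

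The deposited values are counts per 1e+06 reads (CPM) raised by 0.0001. Depth, estimated from what 1 read is worth in each sample, was 20.2 to 29.9 in WT and 26.0 to 33.4 in miR-21-/- samples, in units of 1e+06 reads. Mir21a itself is listed at the 0.0001 floor in all 8 samples, so it gives no check of the genotype labels. Markers of the macrophage and of the sort (8 genes, summed) ranged from 7393 to 8390 CPM in WT and from 6584 to 7947 CPM in miR-21-/- samples. None of the 8 was under 1 CPM, so the defining transcripts of the labelled cell type are present. The 8 did not keep the same level in both genotypes: Fcgr1 was higher at a log2 fold change of 0.75 (limma adjusted p = 0.00056), Csf1r was lower at -0.48 (0.0054), Adgre1 was lower at -0.38 (0.0014), and the other 5 were not called. Summed markers of other cells were lower, and some differed between genotypes. The 3 fibroblast markers reached 40.2 to 89.9 CPM in WT against 6.08 to 31.1 CPM in miR-21-/- samples, and all 3 were called lower by the limits of the study. With samples rescaled by the median of ratios, Col1a1 (limma adjusted p = 0.0069) and Col3a1 (0.0053) no longer met these limits. The same held under quantile normalization (0.0077 and 0.0053), though both stayed lower by an adjusted p of 0.05. Pdgfrb met the limits under both. The 4 neutrophil markers reached 695 to 1061 against 520 to 683 CPM. S100a8, S100a9 and Csf3r were lower by a limma adjusted p of 0.05, and Ly6g, at 0.31 on the log2 scale, was not called. With samples rescaled by the median of ratios, S100a8 (limma adjusted p = 0.12) and S100a9 (0.075) lost their calls. With quantile normalization S100a8 lost it (0.055). Csf3r kept its call under both. The 4 dendritic cell markers reached 7.19 to 12.3 against 10.1 to 36.0 CPM, with Clec9a higher at 1.26 (limma adjusted p = 0.0053) and Xcr1 at 1.06, Flt3 at -0.50 and Zbtb46 at -0.41 not called. The 5 T cell markers reached 8.31 to 10.6 against 6.37 to 28.3 CPM, with Cd8a the only gene of the 5 called (1.29, limma adjusted p = 0.0080), and the 3 B cell markers 1.14 to 3.18 against 0.414 to 4.32 CPM. The 3 endothelial markers reached 151 to 299 against 198 to 286 CPM. The 3 epithelial or tumor cell markers reached 15.6 to 22.0 against 11.6 to 15.8 CPM. Among the epithelial markers, Krt8 was lower at -0.39 (limma adjusted p = 0.029) and Krt18, at -0.25, was not called. The call of Krt8 was lost under the median of ratios and under quantile normalization. All 3 NK cell markers and 1 of the epithelial markers (Epcam) were under 1 CPM in every sample. The part of these cells in the values of the autophagy genes was not tested. In bulk samples, fewer cells of a type and less RNA per cell cannot be told apart.

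Vmp1 was 3.19-fold higher in miR-21-/- TAMs. Its level was 133, 115, 117 and 130 CPM in WT replicates 1 to 4, and 426, 373, 405 and 383 CPM in miR-21-/- replicates 1 to 4. The lowest miR-21-/- sample stood far above the highest WT sample. The log2 fold change, on the log2(CPM + 1) scale used throughout, was 1.67 ± 0.067 (SE, n = 4 per genotype), with a 95% interval of 1.52 to 1.82, given as a description since the gene was chosen for it. Per kb of exon, the genes with the highest level among the 37 in WT samples were Gabarap at 151, Sqstm1 at 57.4 and then Vmp1 at 32.1 CPM per kb. In miR-21-/- samples its 103 CPM per kb lay above the 69.0 CPM per kb of Sqstm1 and below the 159 CPM per kb of Gabarap. The values are per gene, so they do not say which Vmp1 transcripts the additional reads come from. A processed pseudogene, Gm11478, lies inside Vmp1 on the same strand, and the strand setting of the counting is not given in the sources used here.

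Tmem41b, which encodes the relative of VMP1, did not pass the test. Its level was 15.2, 14.1, 16.5 and 17.0 CPM in WT and 16.5, 15.2, 16.3 and 14.4 CPM in miR-21-/- samples. The groups overlapped over most of their range, and the log2 fold change of -0.01 had a 95% interval of -0.18 to 0.16. Dividing Vmp1 by Tmem41b within each sample removes any single factor by which all genes of a sample are scaled. The ratio was 8.72, 8.12, 7.11 and 7.67 in WT and 25.9, 24.5, 24.9 and 26.7 in miR-21-/- TAMs, a 3.23-fold difference. No sample of one genotype came near the other. The ratio rests on the same Vmp1 values and is given with no test.

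None of the other 36 genes changed as Vmp1 did. The limits of the study (Benjamini-Hochberg adjusted p no higher than 0.005, fold change above 1.5) were applied to the limma results. By these limits 0 of the other 36 were called in either direction, where 2.89% of all genes tested were called higher and 4.23% lower. At an unadjusted p of 0.05 in limma, 5 of the 36 were higher and 19 lower, where 12.3% and 34.1% of all genes were. By a second limit, an adjusted p at or under 0.05 with no fold limit, 4 of the 36 were higher (11.1%), 17 were lower (47.2%) and 15 were not called. Of all genes tested, 9.49% were higher and 26.5% lower by the same limit. The share of higher genes was thus near that of all genes, and the share of lower genes was above it. All 36 fold changes lay between -0.53 and 0.30 on the log2 scale.

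The lower side of this count depended on how samples were scaled to each other. The median log2 fold change of the 36 genes was -0.17, beside -0.10 for all genes tested. When samples were rescaled by the median of ratios, the medians were -0.068 for the 36 genes and -0.0098 for all genes, a shift of 0.093 for all genes. Under that scaling 7 of the 36 were higher (19.4%) and 8 lower (22.2%), where 14.9% of all genes tested were higher and 15.1% lower. With quantile normalization 6 were higher and 10 lower, where 13.7% and 16.3% of all genes were. Counted without a test, the 4 miR-21-/- values lay entirely above the 4 WT values in 5 of the 36 genes and entirely below in 16, where 9.44% and 25.7% of all genes tested were separated in these directions.

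With Vmp1 left out, 4 higher calls held under all 3 scalings (Atg3, Uvrag, Sqstm1 and Optn). So did 8 lower calls (Ulk1, Ulk2, Pik3c3, Atg14, Wipi1, Atg4c, Atg16l2 and Map1lc3b). The sign of 5 genes that were not called (Tmem41b, Atg10, Atg12, Becn1 and Map1lc3a) differed between scalings, so their estimates are not read as a direction. Of the 21 genes called besides Vmp1, 12 kept their call whichever of the 8 samples was left out: the lower genes Ulk1, Ulk2, Pik3c3, Atg14, Wipi1, Atg2b, Atg4c, Atg7, Atg16l2, Map1lc3b and Nbr1, and the higher gene Sqstm1. The other 9 lost it without at least 1 sample: Atg3 without WT replicates 1 or 2 or miR-21-/- replicates 3 or 4 (adjusted p up to 0.0754), Atg101 without WT replicate 3 (0.0559), and Atg4b, Atg9a, Atg16l1, Wipi2, Tfeb, Uvrag and Optn without any of several samples. Without WT replicates 1 or 2, or miR-21-/- replicates 3 or 4, 1 gene besides Vmp1 was called higher, and without WT replicate 3 the lower calls came to 11. How many of all genes tested kept their calls in these ways was not counted. The counts of kept calls therefore describe the listed genes only and give no comparison with all genes.

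**Figure D1:**
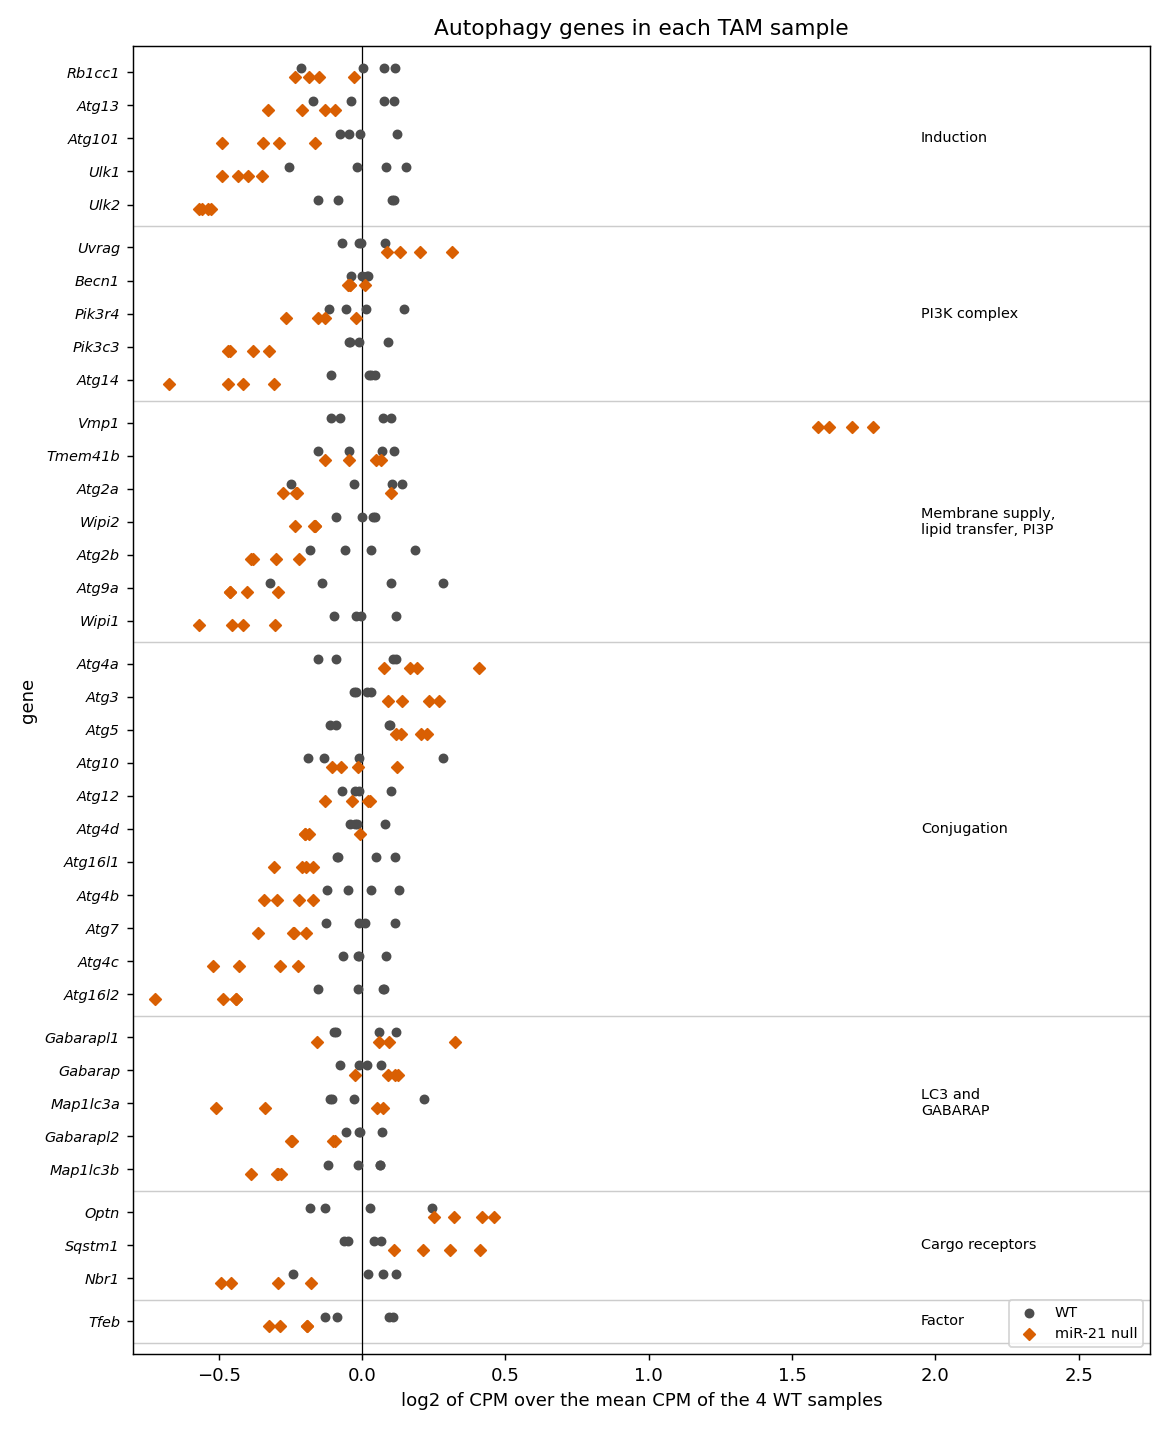
Each point is 1 TAM sample, placed by the log2 of its CPM over the mean of the 4 WT samples on the horizontal axis, for the 37 genes grouped by role on the vertical axis (grey circles, WT; orange diamonds, miR-21-/-). Vmp1 stands alone above 1.5, while the miR-21-/- samples of Ulk2, Pik3c3, Atg14, Wipi1 and Atg16l2 lie below all WT samples and those of Uvrag, Atg3 and Sqstm1 lie above them.

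**Figure D2:**
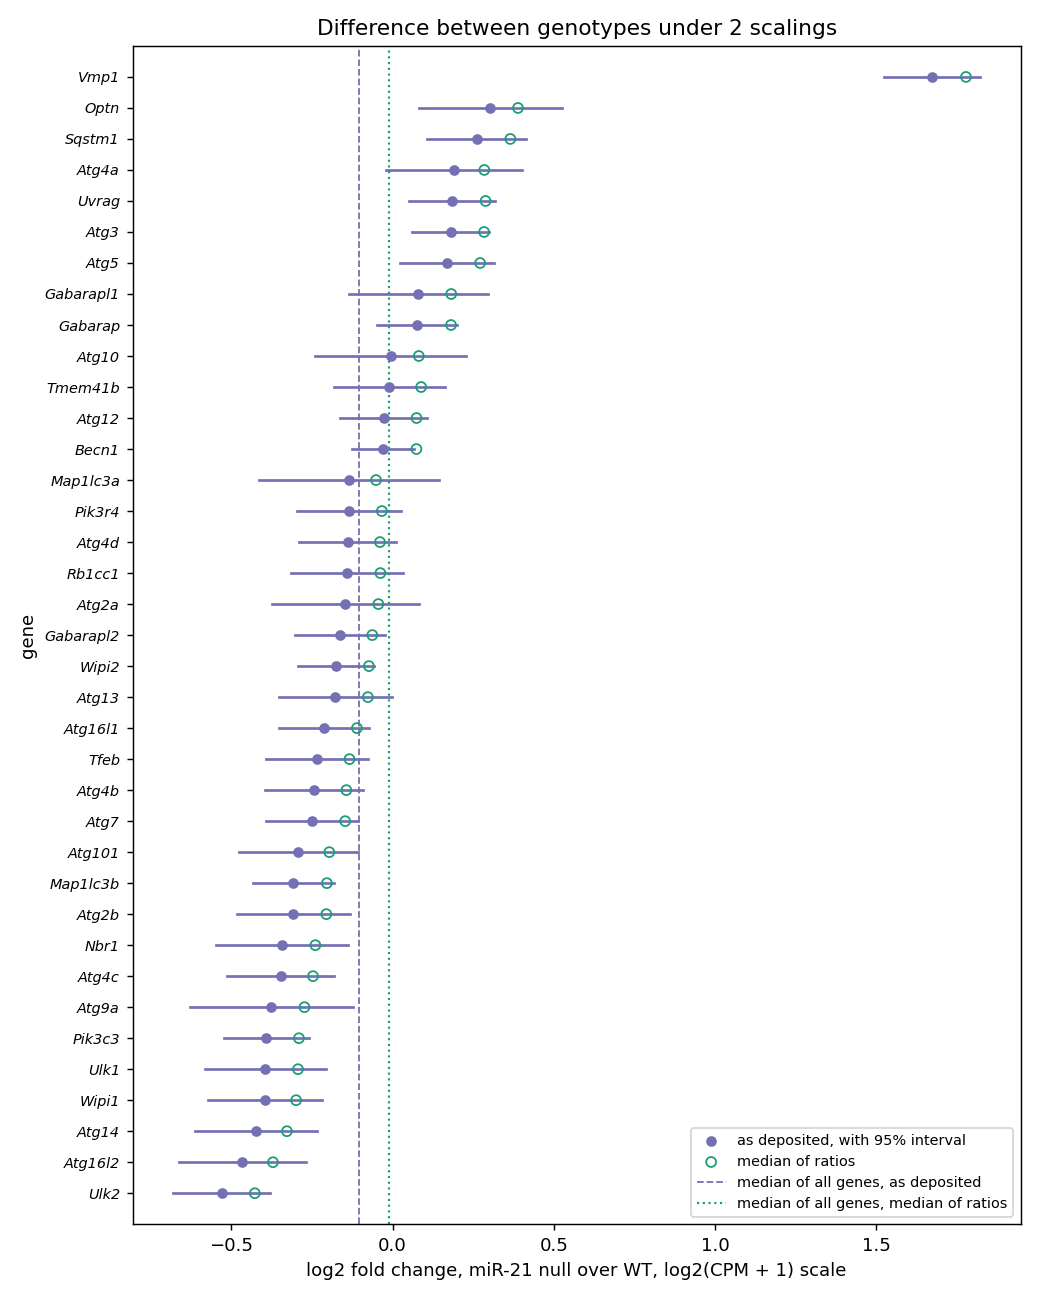
Horizontal axis, log2 fold change between genotypes (positive, higher in miR-21-/- TAMs), computed from log2(CPM + 1). Vertical axis, the 37 genes in order. Filled points with bars give the deposited scaling with its 95% interval, open points the median of ratios scaling, and vertical lines the median of all genes under each. Vmp1 is at 1.67, the other 36 genes lie between -0.53 and 0.30, and each open point is to the right of its filled point.

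Genes of the induction complex were lower or not called. Of the 5, 3 fell by the second limit (Ulk1, Ulk2 and Atg101) and 2 were not called (Atg13 and Rb1cc1), where 26.5% of all genes tested were lower. Under the median of ratios and under quantile normalization 2 of the 5 were lower (Ulk1 and Ulk2), beside 15.1% and 16.3% of all genes. All 5 estimates were negative, as were those of 9250 of the 13850 genes tested. Ulk2, a kinase that starts autophagy and the gene with the lowest fold change on the list, was at 42.4, 51.0, 50.8 and 44.6 CPM in WT and at 31.8, 32.5, 32.1 and 32.8 CPM in miR-21-/- samples. The miR-21-/- samples were close together and all below the WT samples, a log2 fold change of -0.53 ± 0.068 (SE; limma adjusted p = 0.0004). This was 1.44-fold lower, short of the fold limit. Ulk1, the related kinase, ranged from 27.9 to 37.0 CPM in WT and from 23.7 to 26.1 CPM in miR-21-/- samples (log2 fold change -0.40, limma adjusted p = 0.0055).

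Atg101, a scaffold of the same complex, ranged from 11.9 to 13.6 CPM in WT and from 8.92 to 11.2 CPM in miR-21-/- samples, with a log2 fold change of -0.29 (limma adjusted p = 0.021), a call that was lost under the other scalings. Rb1cc1, which encodes the large scaffold FIP200, was at 44.8, 46.0, 42.6 and 36.6 CPM in WT and at 38.3, 36.1, 41.7 and 37.4 CPM in miR-21-/- samples. Its groups overlapped, and its log2 fold change of -0.14 had a 95% interval of -0.31 to 0.033. Atg13, the adaptor of the kinases, was at -0.18 (95% interval -0.35 to -0.0025) and did not pass after adjustment.

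In the class III PI3K complex, the subunits that define its alternative forms moved in opposite directions. ATG14 directs the complex to the forming autophagosome, whereas UVRAG marks the form that acts on endosomes and on maturation. Atg14 was at 13.2, 11.9, 13.0 and 13.1 CPM in WT and at 9.26, 8.02, 10.4 and 9.58 CPM in miR-21-/- samples. Uvrag was at 99.96, 105, 104 and 110.7 CPM in WT and at 130.4, 111.3, 115 and 121 CPM in miR-21-/- samples. Atg14 fell by 0.42 on the log2 scale (limma adjusted p = 0.0041) and Uvrag rose by 0.18 (limma adjusted p = 0.037), and in neither gene did the groups overlap. The call of Uvrag was lost without any of WT replicates 1 to 3 or miR-21-/- replicates 1, 3 and 4, at adjusted p values of 0.0523 to 0.0872.

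Pik3c3, the catalytic subunit VPS34, ranged from 30.7 to 33.8 CPM in WT and from 23.0 to 25.3 CPM in miR-21-/- samples, and fell by 0.39 on the log2 scale (limma adjusted p = 0.00095). Its partners in both forms were not called. Becn1 ranged from 90.3 to 94.2 and from 89.6 to 93.4 CPM, with a 95% interval of -0.13 to 0.066 for the log2 fold change. Pik3r4, the regulatory kinase subunit, had a log2 fold change of -0.14 with a 95% interval of -0.30 to 0.026.

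Besides Vmp1 and Tmem41b, 5 genes supply membrane or bind PI3P, and 4 of them fell by the second limit (Atg2b, Atg9a, Wipi1 and Wipi2), with Atg2a not called, beside 26.5% of all genes tested. Under the median of ratios 1 of the 5 was lower (Wipi1), beside 15.1% of all genes. Wipi1, a PI3P-binding protein of the forming autophagosome, was at 11.5, 13.4, 12.2 and 12.3 CPM in WT and at 9.26, 10.0, 9.02 and 8.33 CPM in miR-21-/- samples. The groups were apart, with a log2 fold change of -0.40 ± 0.079 (SE; limma adjusted p = 0.0040). Wipi2, which recruits the conjugation machinery, moved less, from 35.4 to 39.0 CPM in WT to 32.1 to 33.7 CPM in miR-21-/- samples (log2 fold change -0.18, limma adjusted p = 0.026).

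Atg9a, which encodes the protein of the seed vesicles, was variable in WT, from 32.6 to 49.5 CPM, and ranged from 29.5 to 33.2 CPM in miR-21-/- samples. Its groups overlapped slightly, its log2 fold change was -0.38 and its limma adjusted p 0.027. The lipid transfer genes were at -0.31 for Atg2b (limma adjusted p = 0.013) and -0.15 for Atg2a (95% interval -0.38 to 0.081). The calls of Atg9a and Wipi2 were lost under both other scalings, and that of Atg2b under the median of ratios.

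The 11 conjugation genes were mixed. By the second limit 1 was higher (Atg3), 5 were lower (Atg4b, Atg4c, Atg7, Atg16l1 and Atg16l2) and 5 were not called, beside 9.49% higher and 26.5% lower of all genes. The median of ratios gave 3 higher and 2 lower, beside 14.9% and 15.1% of all genes. Atg16l2, a paralog of the gene for the subunit that places LC3 on the membrane, was at 10.5, 11.2, 11.2 and 9.52 CPM in WT and at 7.80, 6.42, 7.56 and 7.81 CPM in miR-21-/- samples. All miR-21-/- samples were below all WT samples, with a log2 fold change of -0.47 ± 0.088 (SE; limma adjusted p = 0.0030). Atg16l1 itself fell by 0.21, from 38.9 to 44.7 CPM in WT to 33.4 to 36.7 CPM in miR-21-/- samples (limma adjusted p = 0.024).

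The enzymes of conjugation did not move together. Atg7, the E1-like enzyme at the head of both reactions, fell by 0.25 on the log2 scale (limma adjusted p = 0.013), from 38.7 to 45.7 CPM in WT to 32.9 to 36.9 CPM in miR-21-/- samples. Atg3, the E2-like enzyme for LC3, rose by 0.18 (limma adjusted p = 0.025), with values of 56.5, 56.9, 58.3 and 59.0 CPM in WT and 61.4, 63.5, 67.8 and 69.5 CPM in miR-21-/- samples. Atg10, the E2-like enzyme for ATG12, was at about 5 CPM in both genotypes, with a 95% interval of -0.24 to 0.23. Atg12 had an interval of -0.16 to 0.11. Atg5, the partner that ATG12 is joined to, ranged from 28.4 to 32.9 CPM in WT and from 33.4 to 35.9 CPM in miR-21-/- samples, so that the groups did not overlap, but at a log2 fold change of 0.17 its limma adjusted p was 0.069. Under the median of ratios Atg5 passed, at 0.27 with an adjusted p of 0.012.

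The 4 ATG4 proteases prepare LC3 and GABARAP proteins and release them again. Of their genes, Atg4b and Atg4c were lower by the second limit, and Atg4a and Atg4d were not called. Atg4c fell by 0.35 (limma adjusted p = 0.0057), from 23.1 to 25.6 CPM in WT to 16.9 to 20.7 CPM in miR-21-/- samples. Atg4b fell by 0.25 (limma adjusted p = 0.020), from 27.7 to 33.0 CPM to 23.8 to 26.8 CPM, a call that was lost under both other scalings, as were those of Atg7 and Atg16l1. Atg4a had the highest estimate among the conjugation genes and was not called. It was at 7.61, 6.63, 7.66 and 6.35 CPM in WT and at 7.94, 7.45, 9.38 and 8.07 CPM in miR-21-/- samples, with 1 miR-21-/- value inside the WT range and a 95% interval of -0.020 to 0.40. Under the median of ratios it passed, at 0.28 with an adjusted p of 0.044. Atg4d was at -0.14, with a 95% interval of -0.29 to 0.011.

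Of the 5 LC3 and GABARAP genes, Map1lc3b fell and the other 4 were not called, beside 26.5% lower of all genes. Map1lc3b, which encodes LC3B, was at 66.6, 75.5, 71.7 and 75.6 CPM in WT and at 58.9, 59.6, 59.1 and 55.3 CPM in miR-21-/- samples. No miR-21-/- sample reached a WT sample, with a log2 fold change of -0.31 ± 0.056 (SE; limma adjusted p = 0.0025). An annotated gene on the same strand, Gm20388, overlaps Map1lc3b, and had a mean of 101 CPM and a log2 fold change of 0.42. Zcchc14, on the opposite strand, also overlaps Map1lc3b, and had a mean of 6.21 CPM and a log2 fold change of -1.25. The level of Map1lc3b thus depends on how reads in the overlaps were assigned. In all, 10 of the 37 genes overlap another tested gene in their coordinates, and their values are uncertain to that extent.

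Gabarap, the most abundant of the 37 genes per kb, ranged from 263 to 290.3 CPM in WT and from 273 to 303 CPM in miR-21-/- samples (95% interval of the log2 fold change -0.047 to 0.20). Under the median of ratios it passed, at 0.18 with an adjusted p of 0.031, and under quantile normalization it was at 0.012 and did not. Gabarapl1 had the highest estimate of the 5. It was at 25.2, 29.2, 28.0 and 25.1 CPM in WT and at 28.0, 33.6, 24.1 and 28.7 CPM in miR-21-/- samples, with overlapping groups and a log2 fold change of 0.08 (95% interval -0.13 to 0.29). Gabarapl2 ranged from 22.4 to 24.4 CPM in WT and from 19.6 to 21.8 CPM in miR-21-/- samples. Its groups did not overlap, but its log2 fold change of -0.16 had a limma adjusted p of 0.066. Map1lc3a was low, between 2.77 and 4.57 CPM over both genotypes, with an interval of -0.41 to 0.14.

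Under the deposited scaling, the cargo receptors held the higher calls with the largest estimates after Vmp1. Under quantile normalization the higher calls of Atg4a (0.35), Atg5 (0.26) and Atg3 (0.24) lay between Sqstm1 (0.22) and Optn (0.47). Sqstm1, which encodes p62 and links ubiquitylated cargo to LC3, was at 186, 185, 198 and 202 CPM in WT and at 223, 257, 208 and 238 CPM in miR-21-/- samples. Every miR-21-/- sample was above every WT sample, with a log2 fold change of 0.26 ± 0.069 (SE; limma adjusted p = 0.016). Optn, which encodes the receptor optineurin, was at 3.47, 3.60, 4.01 and 4.66 CPM in WT and at 5.26, 4.92, 5.41 and 4.69 CPM in miR-21-/- samples. The lowest miR-21-/- sample was just above the highest WT sample, with a log2 fold change of 0.30 ± 0.10 (SE; limma adjusted p = 0.039). This call was kept without WT replicate 4, at an adjusted p of 0.016, and lost without any other sample, at up to 0.0992.

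Nbr1, a receptor related to p62, went the other way. It was at 94.5, 98.1, 101 and 78.9 CPM in WT and at 66.3, 76.0, 82.5 and 68.0 CPM in miR-21-/- samples. WT replicate 4 lay within the miR-21-/- range, and the log2 fold change was -0.34 ± 0.092 (SE; limma adjusted p = 0.016). The call was lost under the median of ratios, at an adjusted p of 0.058. Tfeb, a transcription factor of lysosome and autophagy genes, was at 25.9, 30.6, 30.3 and 26.8 CPM in WT and at 24.9, 23.3, 22.7 and 24.8 CPM in miR-21-/- samples. The groups were narrowly apart, at a log2 fold change of -0.24 (limma adjusted p = 0.027), and neither other scaling kept the call.

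Ratios of a pair of genes within a sample do not change when all genes of the sample are multiplied by a single factor. Quantile normalization is not such a scaling and can change them. The ratios show how the genes of a pair moved relative to each other. The pairs that follow were chosen after the values were seen, so they are given with no test. Uvrag to Atg14 was 7.57, 8.80, 8.01 and 8.47 in WT and 14.1, 13.9, 11.1 and 12.6 in miR-21-/- samples, 1.57-fold higher with no overlap. Both genes were already apart between genotypes, in opposite directions, so this ratio could not overlap. Gabarap to Map1lc3b was 4.22, 3.65, 4.05 and 3.48 in WT and 5.01, 5.09, 5.08 and 4.93 in miR-21-/- samples, 1.31-fold higher with no overlap. Sqstm1 to Nbr1 was 1.97, 1.88, 1.96 and 2.56 in WT and 3.37, 3.38, 2.52 and 3.51 in miR-21-/- samples. In the Gabarap pair Gabarap itself was not called. In the last pair WT replicate 4 and miR-21-/- replicate 3 met, and the other samples stayed apart.

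**Figure D3:**
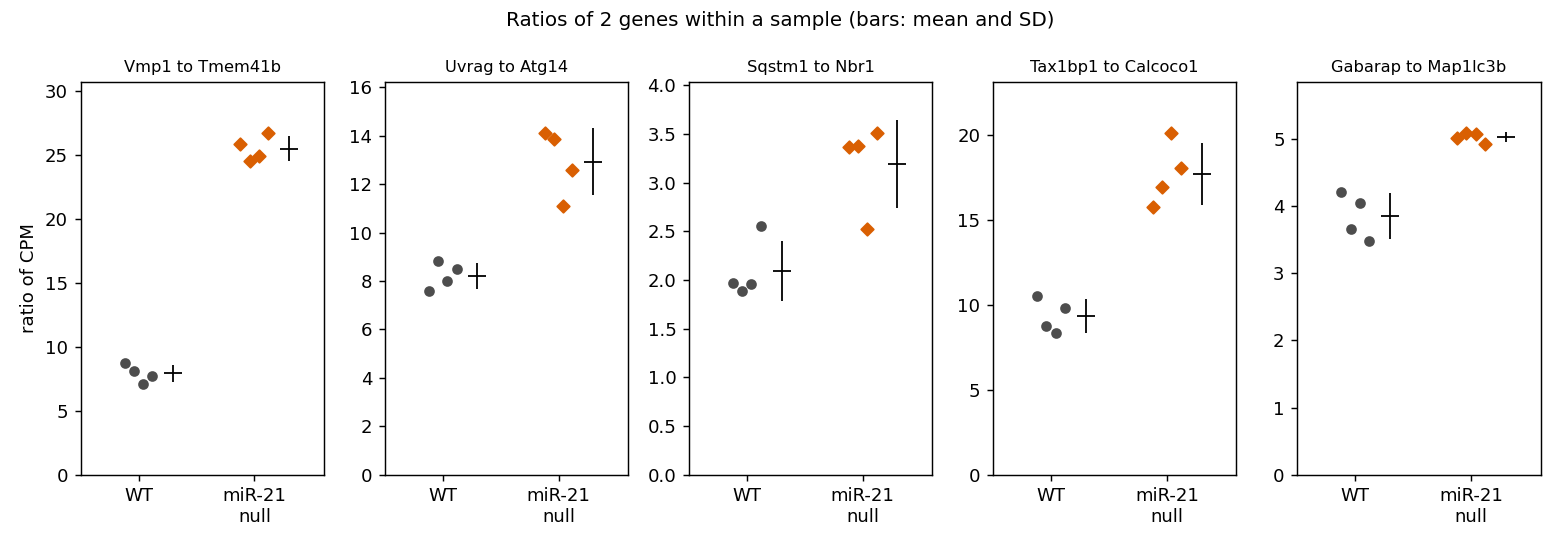
Each panel gives the ratio of the CPM of 2 genes within a sample (vertical axis, starting at 0) for the 4 WT (grey circles) and 4 miR-21-/- samples (orange diamonds), with the mean and SD beside them. The Vmp1 to Tmem41b ratio rose from between 7.11 and 8.72 to between 24.5 and 26.7, while the other 4 ratios, chosen after their values were seen, differed by less than 2-fold.

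Another 58 genes of the pathway, listed from general knowledge, were examined in the same fit. All 58 were tested. By the limits of the study 0 were higher and 1 was lower (7 and 25 at an unadjusted p of 0.05 in limma, where all genes gave 12.3% and 34.1%), and by the second limit 7 were higher (12.1%) and 17 lower (29.3%), close to the 9.49% and 26.5% of all genes. Their median log2 fold change was -0.11. The gene past the fold limit was Flcn, whose product folliculin controls the nutrient sensing of mTORC1 and the entry of TFEB family factors into the nucleus. It was at 71.5, 79.3, 92.4 and 68.3 CPM in WT and at 46.6, 45.4, 58.3 and 45.3 CPM in miR-21-/- samples, a log2 fold change of -0.66 (limma adjusted p = 0.0014). This call was lost with a pseudocount of 10, without a filter on low values, under the median of ratios, and without WT replicates 2 or 3 or miR-21-/- replicate 2. The highest gene of this group, Mitf, a relative of Tfeb, was at 30.1, 25.0, 29.5 and 21.9 CPM in WT and at 38.3, 41.9, 36.7 and 41.0 CPM in miR-21-/- samples (log2 fold change 0.56, limma adjusted p = 0.0021). It passed the limits of the study under the median of ratios (0.66, adjusted p = 0.00085) and quantile normalization (0.65, adjusted p = 0.00095), so that the median of ratios gave 1 higher and 0 lower genes.

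The counts in the sublists are read against the 9.49% higher and 26.5% lower of all genes. In the list of initiation and PI3P genes (10 genes, 1 higher and 3 lower, near those shares), Smcr8, a partner of C9ORF72, was highest at 0.19 (limma adjusted p = 0.029), and Wdr45, which encodes the PI3P-binding WIPI4, was lowest at -0.44 (limma adjusted p = 0.0063). Among the further cargo receptors (13 genes, 1 higher and 5 lower), Tax1bp1 and Ncoa4 were the extremes. Tax1bp1, a receptor for ubiquitylated cargo, was at 174, 171, 163 and 166 CPM in WT and at 217, 229, 233 and 236 CPM in miR-21-/- samples. The groups were far apart relative to their spread, at a log2 fold change of 0.44 (limma adjusted p = 0.00019). Ncoa4, the receptor for ferritin, was at 119, 134, 126 and 89.7 CPM in WT and at 64.1, 78.1, 78.0 and 87.0 CPM in miR-21-/- samples, a log2 fold change of -0.59 (limma adjusted p = 0.0055).

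A receptor whose family also includes TAX1BP1, Calcoco1, fell by 0.45 (limma adjusted p = 0.0027). It was singled out after its values were seen. The Tax1bp1 to Calcoco1 ratio was 10.5, 8.74, 8.36 and 9.81 in WT and 15.8, 16.9, 20.1 and 18.1 in miR-21-/- samples, 1.89-fold higher with no overlap. That separation follows from the 2 genes, each already apart between genotypes in opposite directions.

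Of the 16 genes for fusion with the lysosome, 2 were higher and 6 lower, beside 9.49% and 26.5% of all genes. The median of ratios gave 3 of each, beside 14.9% and 15.1% of all genes. Rab7, the GTPase of late endosomes, was the highest at 0.24 (limma adjusted p = 0.019), from 279 to 326 CPM in WT to 333 to 380.2 CPM in miR-21-/- samples. Stx17, the SNARE protein of the closed autophagosome, was the lowest. It was at 25.0, 28.2, 26.1 and 24.2 CPM in WT and at 20.4, 19.4, 18.4 and 18.4 CPM in miR-21-/- samples, a log2 fold change of -0.41 (limma adjusted p = 0.0014). The 19 genes of upstream control, which hold Flcn and Mitf, had 3 higher and 3 lower calls (15.8% each), beside 9.49% and 26.5% of all genes.

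The null allele was bred into C57BL/6, so the genes beside it were looked at as well. In all, 22 tested genes other than Vmp1 have an edge within 1 Mb of it on chromosome 11. By the limits of the study 0 of the 22 were called, beside 2.89% higher and 4.23% lower of all genes. At an unadjusted p of 0.05 in limma 3 were higher and 7 lower, beside 12.3% and 34.1% of all genes. By the second limit 1 was higher (4.55%) and 4 were lower (18.2%). Of all genes 9.49% were higher and 26.5% lower. The position of these genes against all genes changed with the scaling: under the median of ratios 6 of the 22 were higher (27.3%) and 2 lower (9.09%), beside 14.9% and 15.1% of all genes, and under quantile normalization 4 were higher and 1 lower, beside 13.7% and 16.3%. In a window of 5 Mb, 8 of 93 genes were higher by the limits of the study (8.60%) and 2 lower (2.15%), beside 2.89% and 4.23% of all genes. The higher genes were the chemokine genes Ccl4, Ccl5, Ccl6, Ccl8 and Ccl9, and E230016K23Rik, Slfn10-ps and Tspoap1, and the lower genes were Akap1 and Mmd. On the side of the Vmp1 start, Ptrh2, whose first exon begins just upstream of it on the other strand, was at -0.11 (limma adjusted p = 0.34), and Cltc, the clathrin heavy chain gene, was at 0.11 (limma adjusted p = 0.49). On the other side the nearest gene, Tubd1, fell by 0.30 (limma adjusted p = 0.020), from 5.39 to 5.86 CPM in WT to 3.81 to 4.63 CPM in miR-21-/- samples, a call that neither other scaling kept.

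Gm11478, inside Vmp1, was lower and not higher, at 81.6, 90.0, 86.5 and 89.3 CPM in WT and 66.0, 68.6, 77.9 and 71.0 CPM in miR-21-/- samples (log2 fold change -0.29, limma adjusted p = 0.0053). Ypel2 was at -0.50 (limma adjusted p = 0.018) and Mtmr4, a PI3P phosphatase gene, at -0.21 (limma adjusted p = 0.029). The call of Mtmr4 was lost under both other scalings and that of Ypel2 under quantile normalization. Tex14 was the higher gene, at 1.67, 2.04, 3.51 and 5.22 CPM in WT and 5.30, 5.61, 4.88 and 6.98 CPM in miR-21-/- samples. Its groups overlapped, its log2 fold change was 0.77 and its limma adjusted p 0.029, a call that was lost without WT replicates 1 or 2 or miR-21-/- replicates 2 or 4.

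**Figure D4:**
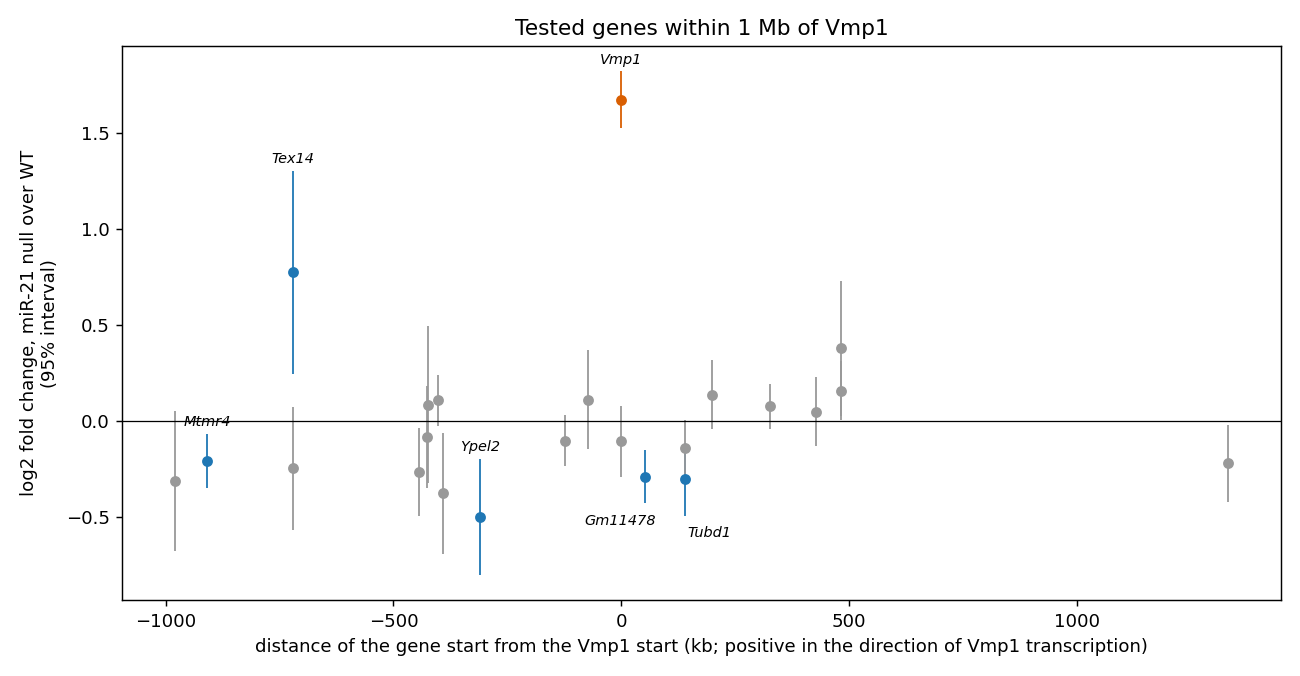
Vertical axis, log2 fold change with its 95% interval for Vmp1 (orange) and the 22 other tested genes with an edge within 1 Mb of it (blue, limma adjusted p at or under 0.05; grey, not called). Horizontal axis, distance in kb of each gene's start from the Vmp1 start, so that a long gene can start farther away than that. Vmp1 is at 1.67 and no other gene of the window is above 0.77.

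Target sites of miR-21a-5p were looked for in 3′ UTRs, taking for every gene the longest in the annotation. All 37 genes have a 3′ UTR in the annotation. The 8-base site ATAAGCTA, the complement of the seed followed by A, was in 0 of the 37, against 256 of 11443 tested genes with a 3′ UTR (2.24%). A 7-base site, ATAAGCT or TAAGCTA, was in 4 of the 37 (10.8%), against 10.2% of the tested genes. All 4 were TAAGCTA, written in capitals with the bases around it from the annotated transcripts, plus strand, build GRCm38. They are shown because 3 of the 4 lie in genes of the LC3 and GABARAP family. The Map1lc3b site begins at base 1970 of the 2002 bases of the 3′ UTR taken, and the gene itself runs on to chr8:121598760. Other Map1lc3b transcripts were not searched, so the site may be absent from them.

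Atg4b, chr1:93790438-93790460: atctatagTAAGCTAgtaacagc

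Gabarapl1, chr6:129541958-129541980: ttacaaggTAAGCTAggttgccc

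Map1lc3a, chr2:155277702-155277724: tcctaaacTAAGCTAtttcagtc

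Map1lc3b, chr8:121593069-121593091: ttccaggcTAAGCTAtggtaccg

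Atg4b and Map1lc3b were among the lower genes, at -0.25 and -0.31, and Gabarapl1 and Map1lc3a were not called, at 0.08 and -0.13. The estimate of Map1lc3a changed sign under quantile normalization, to 0.038. No gene with a site was called higher, where 9.49% of all genes tested were higher and 26.5% lower by the second limit. So few genes give no result about the sites. A match of letters is a description and not a site of action.

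The RefSeq table of promoters (build GRCm38.p6) holds 38 start sites for 31 of the 37 genes. In the 250 bases before the start, on either strand, CACGTG, the core of the E-box and of the motif that TFEB family factors bind, was in 3 of the 38 (7.89%; Atg3, Atg5 and Atg7) against 6.02% of all 32851 promoters. TTCNNNGAA, the core that STAT factors bind, was in 4 (10.5%; Gabarap, Gabarapl1, Nbr1 and Wipi1) against 7.02%. TGACNNNGC, the core of the antioxidant response element, was in 5 promoters of 3 genes (13.2%; Atg13, Ulk2 and 3 start sites of Vmp1) against 10.2%. Each share was within a few percentage points of that of all promoters. Of the called genes with a motif, Vmp1 left out, Atg3 was higher and Ulk2, Atg7, Nbr1 and Wipi1 were lower.

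Parts of 3 promoters are shown, those of the gene with the largest difference, of the lowest gene and of the higher E2-like enzyme, trimmed to bases outside annotated exons and written 5′ to 3′ on the strand of the gene with motifs in capitals. The motif upstream of the first Vmp1 start lies in the first exon of Ptrh2 and is not shown.

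Vmp1, chr11:86683837-86683984, minus strand: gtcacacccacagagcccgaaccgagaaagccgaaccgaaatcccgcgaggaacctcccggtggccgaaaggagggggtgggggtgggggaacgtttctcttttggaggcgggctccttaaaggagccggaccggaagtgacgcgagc

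Ulk2, chr11:61855093-61855342, minus strand: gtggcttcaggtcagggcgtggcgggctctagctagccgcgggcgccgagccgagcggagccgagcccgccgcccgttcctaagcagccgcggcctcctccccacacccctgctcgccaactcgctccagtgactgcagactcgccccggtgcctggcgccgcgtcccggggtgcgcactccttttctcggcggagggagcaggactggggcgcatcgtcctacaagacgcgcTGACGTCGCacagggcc

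Atg3, chr16:45158707-45158784, plus strand: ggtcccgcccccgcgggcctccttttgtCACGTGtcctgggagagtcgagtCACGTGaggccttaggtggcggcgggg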

How the data were processed

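TAMs of 4 WT and 4 miR-21-/- samples were measured by RNA-Seq. The authors deposited counts per 1e+06 reads (CPM), 1 value per gene and sample, each raised by 0.0001, made with STAR and Partek 7.0 on mm10 per the submitters' processing notes. The counting rule and strand setting are not given in the sources used here. Between 73.8% and 74.6% of the low values (up to 20 reads, within 0.02 of a read) were whole reads, so counts were not recovered and no count test was run. Depth was estimated from the value of 1 read in each sample, and precision is limited by 4 samples per genotype. All 37 mitochondrial genes are listed at 0.0001, which can mean that they were not counted.

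From the deposited CPM, log2(CPM + 1) entered a limma model (limma 3.58.1, R 4.3.3; lmFit and eBayes with trend, two-sided) for the 13850 genes whose mean reached 1 per 1e+06 of the column totals, with Benjamini-Hochberg adjustment over all of them. The limits of the study (adjusted p 0.005, fold change 1.5) and an adjusted p of 0.05 were used. The permutation test planned for the Vmp1 to Tmem41b ratio is not reported, since Vmp1 was chosen for its difference. Of the table's symbols, 93.2% are in GENCODE vM21, 97.1% of these with the same start.

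The members and lists were chosen with earlier results of these data known. Genes named with every sample are Vmp1, Tmem41b and the highest and lowest of each role. Of the other lists, genes past the fold limit and the highest and lowest are named, and near Vmp1 the called and nearest genes. Genes named beyond this rule were chosen after their values were seen. Alternatives were pseudocounts of 0.1 and 10, no filter or 5 per 1e+06, quantile normalization, median of ratios, eBayes without trend, a replicate block, leaving out each sample and a window of 5 Mb.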

Additional observations from a re-analysis of the deposited data

Results flagged for a closer look

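In groups of 4, a sample was singled out when its gap to the nearest other sample took up more of the range of the group than Dixon's 95% limit allows, which chance gives in about 1 in 20 groups. Among the 74 groups of the 37 genes, 7 met it. In Atg2a, miR-21-/- replicate 3 was high at 58.5 CPM, with the others at 45.0 to 46.6 CPM. In Atg4d, miR-21-/- replicate 1 was high at 17.7 CPM, with the others at 15.5 to 15.7 CPM. In Becn1, miR-21-/- replicate 4 was high at 93.4 CPM, with the others at 89.6 to 90.2 CPM. In Atg16l2, miR-21-/- replicate 2 was low at 6.42 CPM, with the others at 7.56 to 7.81 CPM, and in Wipi2 the same replicate was low at 32.1 CPM, with the others at 33.6 to 33.7 CPM. In Map1lc3b, miR-21-/- replicate 4 was low at 55.3 CPM, with the others at 58.9 to 59.6 CPM. In Atg14, WT replicate 2 was low at 11.9 CPM, with the others at 13.0 to 13.2 CPM. No sample of Vmp1 or Tmem41b met the limit.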

How the results depend on the processing

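As a description of a gene chosen for its difference, the log2 fold change of Vmp1 ran from 1.64 to 1.71 with 1 sample left out. The log2 Vmp1 to Tmem41b ratio ran from 1.64 to 1.73. Of the other 36 genes, none was called by the fold limit under the alternatives run. By the adjusted p limit, the genes called higher were 2 without a filter, 7 under the median of ratios, 2 with the replicate block and 1 to 4 with 1 sample left out. Those called lower were 10 under quantile normalization, 8 under the median of ratios and 11 to 18 with 1 sample left out, the fewest without WT replicate 3. Their median log2 fold change was -0.077 under quantile normalization and -0.068 under the median of ratios. For all genes, calls by the adjusted p limit were counted under the deposited scaling, the median of ratios and quantile normalization. By the fold limit they were counted under the deposited scaling only. Counts from other fits, here and below, are therefore not compared with all genes.

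Reversed estimates, none called, were under quantile normalization 0.12 for Tmem41b, 0.16 for Atg10, 0.059 for Atg12, 0.0066 for Becn1 and 0.038 for Map1lc3a. Under the median of ratios they were 0.088 for Tmem41b, 0.081 for Atg10, 0.074 for Atg12 and 0.074 for Becn1. With 1 sample left out, Tmem41b ran from -0.057 to 0.026, Atg10 from -0.055 to 0.076 and Atg12 from -0.050 to 0.0057. The cause was not tested.

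Of the 58 other autophagy genes, 1 was called higher by the fold limit under quantile normalization and 1 under the median of ratios, and 0 were called lower with a pseudocount of 10, without a filter or under the median of ratios. With 1 sample left out these counts ran from 0 to 1 and from 0 to 2. By the adjusted p limit 10 were higher (17.2%) and 11 lower (19.0%) under the median of ratios, where 14.9% and 15.1% of all genes were. Quantile normalization gave 6 higher and 13 lower, where 13.7% and 16.3% of all genes were. With 1 sample left out 4 to 7 were higher and 13 to 20 lower.

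Of the genes within 1 Mb of Vmp1, the higher calls by the adjusted p limit were 0 without a filter, 4 under quantile normalization, 6 under the median of ratios, 2 with the replicate block and 0 to 2 with 1 sample left out. The lower calls were 1, 2 and 2 to 6 under quantile normalization, the median of ratios and with 1 sample left out. By the fold limit 0 to 1 was higher with 1 sample left out. In a window of 5 Mb, which holds 93 genes, 8 were higher and 2 lower by the fold limit and 13 (14.0%) and 20 (21.5%) by the adjusted p limit, where 9.49% and 26.5% of all genes were.

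Replicate numbers are those of the sample descriptions. The titles of the miR-21-/- samples number them differently or not at all, so the numbers may not mark pairs. Deviations of samples with the same number correlated at 0.083, -0.11, -0.14 and 0.22 for numbers 1 to 4. Only number 4 was above the correlations with other numbers (-0.13 to 0.032), and not every pair passed 0.1, so the replicate block was not used for the results. With it, Uvrag, Optn, Wipi2 and Tfeb lost their calls, at adjusted p of 0.0639, 0.0749, 0.0626 and 0.0626. No gene of the list was below the filter, so the test planned for such genes was not run.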
